A study of Mus musculus with 8 samples.

Results

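Adult medullary thymic epithelial cells (mTEC) with transcripts of Gp2 or Ccl9 were set against the other mTEC of the same libraries. The cells were selected on measured values: a cell had to hold at least 3 unique molecular identifiers (UMIs, 1 per captured transcript) of Gp2 and Ccl9 together, fewer than 5 of Aire and fewer than 5 of 6 tuft cell genes (Trpm5, Avil, Dclk1, Gnb3, Sh2d6 and Pou2f3) together. Of 7201 adult mTEC kept, 356 met this rule, which was 29 of 1586 in replicate 1 and 327 of 5615 in replicate 2. They are called microfold-like cells below, a name that comes from the rule genes and that was read beside other genes of microfold cells. The list of those genes was chosen with earlier results of these data known, so it is no independent check of the name. Further M cell genes were high in a subset of these cells, mostly among those with 10 or more UMIs of Gp2 and Ccl9, and the name is used for the rest by the rule alone.

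At several ages of C57BL/6 (CD45.2) wild-type mice, the study sequenced RNA of single TEC (thymic epithelial cells), giving 8 libraries with 25750 cells kept. Both libraries used here were adult thymus of wild-type mice, sorted as DAPI- EpCAM+ CD45- Ly51- UEA-1+, a gate for live mTEC. A further 2 libraries, adult cortical TEC (cTEC) with the converse gate for Ly51 and UEA-1, served as background. No source used here says whether the libraries came from separate mice. The p-values therefore measure how far the differences within a library varied between the adult mTEC libraries, a spread that may be technical.

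Microfold cells (M cells) are epithelial cells over gut lymphoid follicles that take up particles from the lumen and pass them to the immune cells below. They arise when RANK ligand acts on RANK (Tnfrsf11a) and they depend on the transcription factors Spi-B (Spib) and Sox8. GP2 is an uptake receptor for bacteria on their surface, Ccl9 and Ccl20 are chemokines that they secrete, and the medulla of the thymus holds mTEC that use genes of such peripheral cell types.

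Spi-B belongs to the ETS family of transcription factors, which bind DNA with a GGAA core. The promoters of both rule genes, of the chemokines Ccl6 and Ccl20 and of the survival gene Bcl2a1a are shown because Gp2 and Ccl9 chose the cells and the other 3, picked as examples that hold the letters below, were among the 12 largest rises. Each window runs from 250 bases before to 50 bases after the gene's start in RefSeq (GRCm38.p6), read 5′ to 3′ on the gene's strand, with GGAAGT on either strand (ACTTCC where it lies on the other strand) in capitals.
Gp2 (chr7:119459223-119459522, minus strand): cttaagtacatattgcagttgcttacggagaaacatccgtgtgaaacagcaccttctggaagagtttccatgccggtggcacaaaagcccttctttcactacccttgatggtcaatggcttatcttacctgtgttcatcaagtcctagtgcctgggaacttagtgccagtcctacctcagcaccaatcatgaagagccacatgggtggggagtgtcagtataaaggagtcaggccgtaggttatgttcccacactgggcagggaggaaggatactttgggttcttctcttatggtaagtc
Ccl9 (chr11:83578587-83578886, minus strand): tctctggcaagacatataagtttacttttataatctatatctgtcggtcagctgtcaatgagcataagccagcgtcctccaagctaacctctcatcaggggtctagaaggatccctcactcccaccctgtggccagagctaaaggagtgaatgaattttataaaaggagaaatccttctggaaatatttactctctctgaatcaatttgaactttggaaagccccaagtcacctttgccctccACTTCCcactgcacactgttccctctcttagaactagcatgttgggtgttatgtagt
Ccl6 (chr11:83593038-83593337, minus strand): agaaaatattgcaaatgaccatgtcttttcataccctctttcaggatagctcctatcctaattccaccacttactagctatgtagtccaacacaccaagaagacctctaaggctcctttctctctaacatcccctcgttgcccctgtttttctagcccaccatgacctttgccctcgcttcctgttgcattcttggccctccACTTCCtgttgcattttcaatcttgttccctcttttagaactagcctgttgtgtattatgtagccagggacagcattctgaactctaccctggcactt
Ccl20 (chr1:83116516-83116815, plus strand): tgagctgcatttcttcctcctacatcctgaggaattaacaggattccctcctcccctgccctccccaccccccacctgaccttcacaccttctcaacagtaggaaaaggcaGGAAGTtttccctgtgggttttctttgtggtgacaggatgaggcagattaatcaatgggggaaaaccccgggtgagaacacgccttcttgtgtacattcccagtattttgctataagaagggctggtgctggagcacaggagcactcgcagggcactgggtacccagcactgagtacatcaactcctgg
Bcl2a1a (chr9:88956670-88956969, plus strand): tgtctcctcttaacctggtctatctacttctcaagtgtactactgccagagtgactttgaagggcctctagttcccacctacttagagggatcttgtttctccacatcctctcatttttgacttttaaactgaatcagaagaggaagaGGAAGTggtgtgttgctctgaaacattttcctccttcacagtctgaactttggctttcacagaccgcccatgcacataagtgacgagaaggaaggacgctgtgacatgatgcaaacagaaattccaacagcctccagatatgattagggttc
The letters GGAAGT were in the window of Ccl9, Ccl6, Ccl20 and Bcl2a1a and were not in that of Gp2. Of the 12 largest rises, 10 had a promoter in the table and 5 of these held them. The windows of Spib, Sox8, Tnfaip2, Pglyrp1, Fabp1, Hamp, Muc13 and Cst9 did not. They are common: 24.1% of all 27025 promoters of the table held them, 27.2% of those of the genes tested below and 24.8% of those of the genes that were higher in microfold-like cells. The longer GAGGAAGT, which contains GGAAGT and was likewise read on both strands, stood in 3.28% of all promoters, in 3.03% of those of genes tested and in 30 of 479, or 6.26%, of those of the genes higher in microfold-like cells. Among the 10 of the 12 largest rises with a promoter in the table, 3 held it (Bcl2a1a, Cyp2a5 and Mmp7). A match of letters is a description and no sign of binding. Ccl9 and Ccl6 are neighbours on chromosome 11, with starts 14.45 kb apart.

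Microfold-like cells were 1.83% of the mTEC kept in replicate 1 (exact 95% binomial interval 1.23 to 2.62) and 5.82% in replicate 2 (5.23 to 6.47), intervals that cover counting error only. The intervals do not overlap. With 10 or more UMIs asked for, the shares were 1.01% (16 cells) and 2.71% (152 cells). Gp2 or Ccl9 UMIs were also far more widely spread in replicate 2: 37.99% of its mTEC held at least 1, against 8.26% in replicate 1, and 1319 of its cells held exactly 1. After thinning every cell to 4000 UMIs, Ccl9 was detected in 11.1% of the other mTEC, 8.86% of Aire-high cells and 6.56% of tuft-marker cells of replicate 2, at median depths of 11565.5, 15479.5 and 8270 UMIs before thinning. In replicate 1 the thinned share was 2.32% of the other mTEC. A cell at the limit of 3 UMIs in replicate 2 was therefore closer to the level of cells outside the rule than one in replicate 1.

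**Figure D1:**
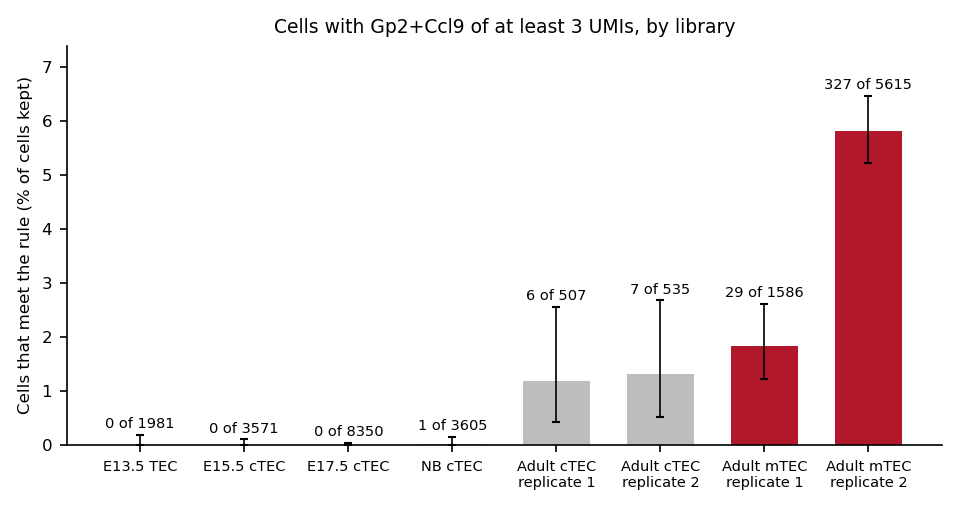
Percent of the cells kept in each library that met the rule; bars are the shares, whiskers the exact 95% binomial intervals, and the counts stand above them. The adult mTEC libraries (red) hold 29 of 1586 and 327 of 5615 cells, the adult cTEC libraries 6 of 507 and 7 of 535, and the 4 libraries from before adulthood 1 cell together.

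Outside the mTEC libraries the rule was met by 6 of 507 adult cTEC in replicate 1 and 7 of 535 in replicate 2, by 1 of 3605 newborn cTEC, and by 0 of 1981 E13.5 TEC, 0 of 3571 E15.5 cTEC and 0 of 8350 E17.5 cTEC. Taken as 3 counts of the total, a count of 0 allows a share of up to 0.151%, 0.0840% and 0.0359% of those cells, and the exact 95% intervals plotted end at 0.186%, 0.103% and 0.0442%.

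Depth and quality stood as follows. The median microfold-like cell held 9531 UMIs in replicate 1 and 9672 in replicate 2, against 9499 and 11565.5 in the other mTEC, and thinned to 4000 UMIs it held 1695 and 1621 genes against 1666 and 1628. Mitochondrial UMIs were 2.41% and 1.84% at the median, against 3.15% and 2.26%. Ribosomal protein genes took 11.55% and 14.98% of the UMIs, against 16.3% and 20.9% in the other mTEC. Both libraries shared 10 cell barcodes, and 0 of these were of microfold-like cells in both. A doublet caller marked 4 cells in each library, of which 0 were microfold-like, and since 0.252% and 0.0712% of the cells are under 0.5% it is not taken to have worked in either library, so doublets were not removed.

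The rule genes themselves are described without a test. Levels, in CPM (the summed UMIs of a gene scaled to a common library total), were 576 and 579.9 for Gp2 in the microfold-like cells of replicates 1 and 2, and 3.55 and 18.5 in the other mTEC. Ccl9 stood at 2115 and 1331 CPM against 7.71 and 37.0. Most cells held Ccl9 without Gp2, 20 of 29 and 174 of 327, while 8 and 127 held both genes and 1 and 26 held Gp2 alone. The largest counts in a cell were 92 and 98 UMIs of Gp2 and 175 and 130 of Ccl9, with a median of 11 and 9 for the sum of both. Although the rule kept Aire under 5 UMIs, 55.2% and 63.9% of the cells held at least 1 Aire UMI, and their Aire level was 131.4 and 121.4 CPM. Among cells with low Aire and tuft counts and 0 UMIs of Gp2 and Ccl9, 25.2% and 58.95% held an Aire UMI. Their Aire level was 61.0 and 120.8 CPM, so in replicate 2 it was about that of the microfold-like cells. At the limit itself, 3 and 63 cells held exactly 3 UMIs and 6 and 161 cells with low Aire and tuft counts held exactly 2. In replicate 2 those with 2 and with 3 UMIs had 13.6 and 26.9 CPM of Ccl6, 173 and 662 CPM of Ccl20, and 106 and 119 CPM of Spib. A further 14 and 147 cells with 3 or more UMIs were left out for their Aire count, and 1 and 22 for their tuft genes. In replicate 1 the 1 cell with tuft genes is also among the 14.

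For the tests, UMIs were summed over the microfold-like cells and over the other mTEC of each library, and the 4 sums were compared with the library as a block, by the quasi-likelihood test of edgeR with Benjamini-Hochberg adjustment over all genes. Among 15573 genes tested, 649 (4.17%) were higher and 369 (2.37%) lower in microfold-like cells at an adjusted p under 0.05, with the 9 genes of the rule left out. Without the library as a block this number fell to 0, with 1696 genes at an unadjusted p under 0.05, so each call rests on comparing cells within a library. Fold changes below are log2 values of the microfold-like over the other cells, with standard errors (SE).

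The M cell list was chosen with earlier results of these data known. Of its 23 genes, 22 passed the filter on low counts, and 17 of these 22 were higher in microfold-like cells, against 4.17% of all genes tested. DESeq2's Wald test did not call 5 of the 17 (Tnfrsf11a, Marcksl1, Scg5, Rac2 and H2-M2). The median log2 difference over the list was 1.24, and -0.05 over all genes. The list is headed by chemokines and an antibacterial protein of the gut. Ccl20, which draws Ccr6-bearing lymphocytes and dendritic cells, stood at 3594 and 2050 CPM in the microfold-like cells of replicates 1 and 2, against 72.9 and 110 CPM in the other mTEC, a difference of 4.89 (SE 0.18, adjusted p = 7.52e-149). Ccl6, a chemokine closely related to Ccl9, stood at 461.5 and 622.9 CPM against 3.37 and 12.4, a difference of 6.25 (SE 0.23, adjusted p = 3.09e-151). Pglyrp1, which binds bacterial peptidoglycan, stood at 3079 and 2242 CPM against 98.6 and 204.5, a difference of 4.18 (SE 0.18, adjusted p = 1.71e-115). In replicate 1, 1 cell held 42.2% of the Pglyrp1 UMIs, and the level without it was 1836 CPM. For each of these genes both microfold-like sums lay above both sums of the other mTEC. The levels were not even across cells: 58.6% and 61.5% of the microfold-like cells held a Ccl20 UMI, against 7.77% and 21.5% of the other mTEC. A Ccl6 UMI was in 27.6% and 40.7% against 1.80% and 11.1%, and a Pglyrp1 UMI in 75.9% and 83.8% against 32.9% and 65.0%.

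**Figure D2:**
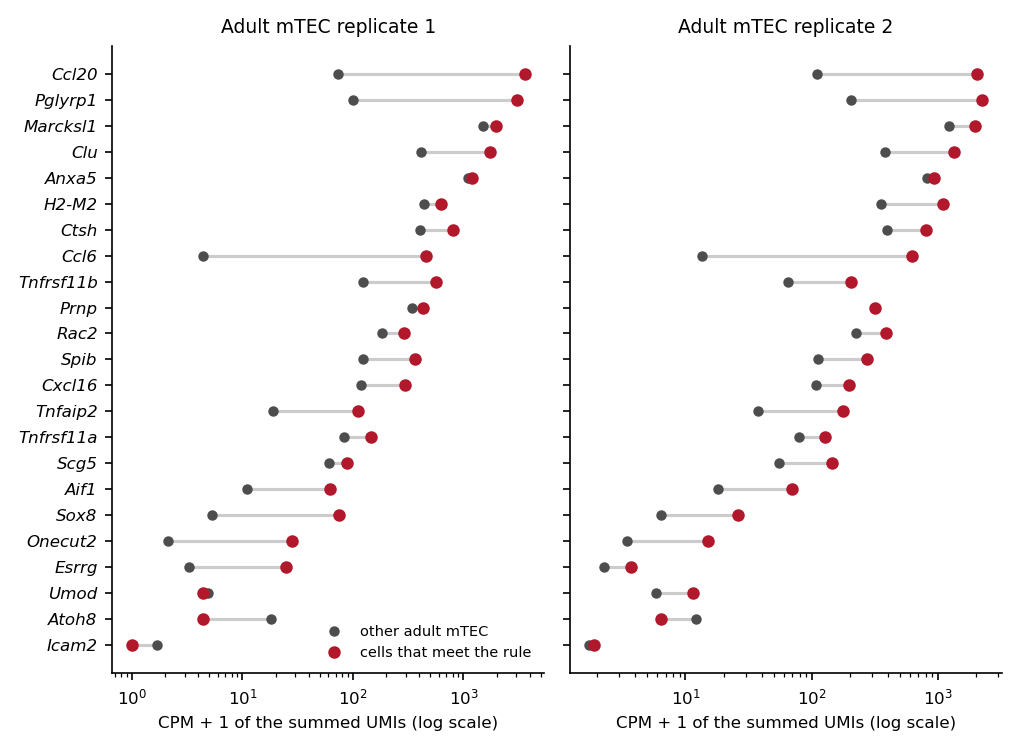
Level of the 23 genes of the M cell list in each adult mTEC library, as CPM + 1 of summed UMIs on a log scale; red points are microfold-like cells, grey points the other mTEC, and each line joins the pair of a gene. Ccl20, Ccl6 and Pglyrp1 are widest apart in both libraries (Ccl6 at 461.5 against 3.37 CPM in replicate 1), and Prnp and Anxa5 lie close together.

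Transcription factors of the M cell program were measured at low levels. Spib stood at 367.2 and 272.9 CPM in microfold-like cells and at 121.8 and 111.9 CPM in the other mTEC, a difference of 1.41 (SE 0.20, adjusted p = 6.33e-11). Sox8 stood at 74.1 and 25.2 CPM against 4.28 and 5.39, a difference of 2.996 (SE 0.38, adjusted p = 6.32e-13), from 22 and 85 UMIs, 8 of the 22 in 1 cell. Both factors were thus higher in each library, yet Sox8 was seen in 13.8% and 14.1% of the microfold-like cells, against 3.34% and 4.77% of the other mTEC. Onecut2, a cut homeobox factor, rose by 3.27 (SE 0.66, adjusted p = 3.84e-05) on 8 and 47 UMIs. Esrrg, a nuclear receptor, had 7 and 9 UMIs and a difference of 2.10 (SE 0.89) that missed the threshold (adjusted p = 0.182). Atoh8, a factor known to restrain M cells, had 1 and 18 UMIs, and at 3.37 and 5.35 CPM against 17.3 and 11.05 its difference of -1.25 (SE 0.52) also missed it (adjusted p = 0.160).

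Receptors of the RANK system were next in the list. Tnfrsf11b, the soluble decoy osteoprotegerin that M cells release, stood at 569.3 and 201.9 CPM against 121.8 and 64.4 in the other mTEC, a difference of 1.91 (SE 0.20, adjusted p = 7.44e-20). Tnfrsf11a, RANK itself, stood at 144.8 and 125.6 CPM against 82.7 and 77.8, a difference of 0.73 (SE 0.22, adjusted p = 0.0206). Of the 17 genes of the RANK and NF-kB list, these and the adaptor Traf1 (1.12, SE 0.23, adjusted p = 6.23e-05) were the 3 that rose, against 4.17% of all genes tested, with a list median of 0.22, and DESeq2's Wald test did not call Tnfrsf11a and Traf1. The NF-kB subunits Relb (286.3 and 234 CPM against 241.2 and 245.1) and Nfkb2 (158.3 and 178.2 against 146.4 and 172.7) differed by 0.06 each, with SE 0.19 and 0.21, and the feedback inhibitor Nfkbia by 0.02 (SE 0.15). Tnfsf11, the ligand, had 0 and 7 UMIs in microfold-like cells.

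Uptake and surface genes made up the rest of the list. Tnfaip2, a membrane remodelling protein of M cells, stood at 111.2 and 175.2 CPM against 17.9 and 36.4, a difference of 2.41 (SE 0.25, adjusted p = 3.45e-20). Clu, a secreted chaperone, stood at 1748 and 1347 CPM against 409.4 and 376.4 and rose by 1.94 (SE 0.17, adjusted p = 7.31e-29). Aif1, an actin-bundling protein, rose by 2.24 (SE 0.31) from 10.0 and 16.9 CPM to 60.6 and 69.2. In cells thinned to 4000 UMIs, Tnfaip2 was seen in 25.9% and 30.1% of the microfold-like cells against 6.76% and 12.8% of the other mTEC, and Aif1 in 14.8% and 18.2% against 3.71% and 6.19%. Clu is widespread in mTEC, at 74.1% and 81.8% against 56.1% and 61.1%. H2-M2 (1.08, SE 0.17), the cathepsin Ctsh (0.999, SE 0.17), Cxcl16 (1.07, SE 0.20), Scg5 (1.06, SE 0.24), Rac2 (0.72, SE 0.19) and Marcksl1 (0.52, SE 0.15) also rose. Anxa5 (1192 and 928.8 CPM against 1102 and 810) and Prnp (427.8 and 317.7 against 340.6 and 313) missed the threshold, as did Umod, while Icam2 had 0 and 3 UMIs and did not pass the filter. Without the cell with most Scg5 UMIs, the level of Scg5 in replicate 1 was 56.0 CPM against 59.0 in the other mTEC. Marcksl1 and Tnfrsf11a were no longer called when cells with 2 UMIs of Gp2 and Ccl9 were added to the microfold-like cells (0.39 and 0.55).

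A count per cell gave a similar picture. In cells thinned to 4000 UMIs, the median microfold-like cell held transcripts of 9 of the 23 genes in each replicate, and the median other mTEC 6 and 7. Cells with 10 or more of the genes were 44.4% and 45.95% of the microfold-like cells and 3.51% and 7.06% of the other mTEC. The microfold-like cells with 10 or more Gp2 and Ccl9 UMIs had a median of 11 and 12 genes, and those with 3 to 4 UMIs a median of 9.5 (4 cells) and 8 (82 cells).

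Levels followed the number of Gp2 and Ccl9 UMIs in a cell, most steeply above 10, in this description that uses the rule genes and has no test. In replicate 2, Spib stood at 90.9 CPM in cells with 0 UMIs, at 110.6 in those with 3 to 4, at 111.2 in those with 5 to 9 and at 479.7 in those with 10 or more. Ccl20 went from 89.4 through 552 and 619.8 to 3927 CPM over the same steps, and Tnfaip2 from 40.9 through 45.4 and 74.5 to 324.6. In replicate 1 the steps up to 9 UMIs hold 4 and 9 cells, with Spib at 84.3 and 148.2 CPM and Ccl20 at 105.4 and 63.5, before 584 and 6777 CPM in the 16 cells with 10 or more. In replicate 2 Reg3g and Saa3 rose earlier along this scale than Spib and Tnfaip2. Reg3g, an antibacterial lectin, went from 930.3 CPM through 2945 and 7298 to 13680. Saa3, an acute-phase protein, went from 311.8 to 2245, 2577 and 1947. Within the 3 to 4 step the 63 cells with exactly 3 UMIs stood at 1111 CPM of Reg3g and 668.8 of Saa3, and the 25 cells with 4 at 8142 and 6711. Below the limit, cells with 1 and 2 UMIs stood at 1612 and 1671 CPM of Reg3g and at 491 and 539.8 of Saa3. Ccl20 stood at 156.6 and 173 CPM in the same cells. In this replicate Spib in cells with 3 to 9 UMIs thus lay near the level of cells with none. Reg3g, Saa3 and Ccl20 were already higher in cells with 1 UMI. Replicate 1 did not show the same for Saa3, which stood at 72.3 CPM in cells with 0 UMIs, 496.9 with 1, 27.9 with 2, 0 with 3 to 9 and 513.4 with 10 or more. Reg3g there stood at 508.8, 390.8 and 1519 CPM with 0, 1 and 2 UMIs and at 3036, 4691 and 16630 above the limit.

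**Figure D3:**
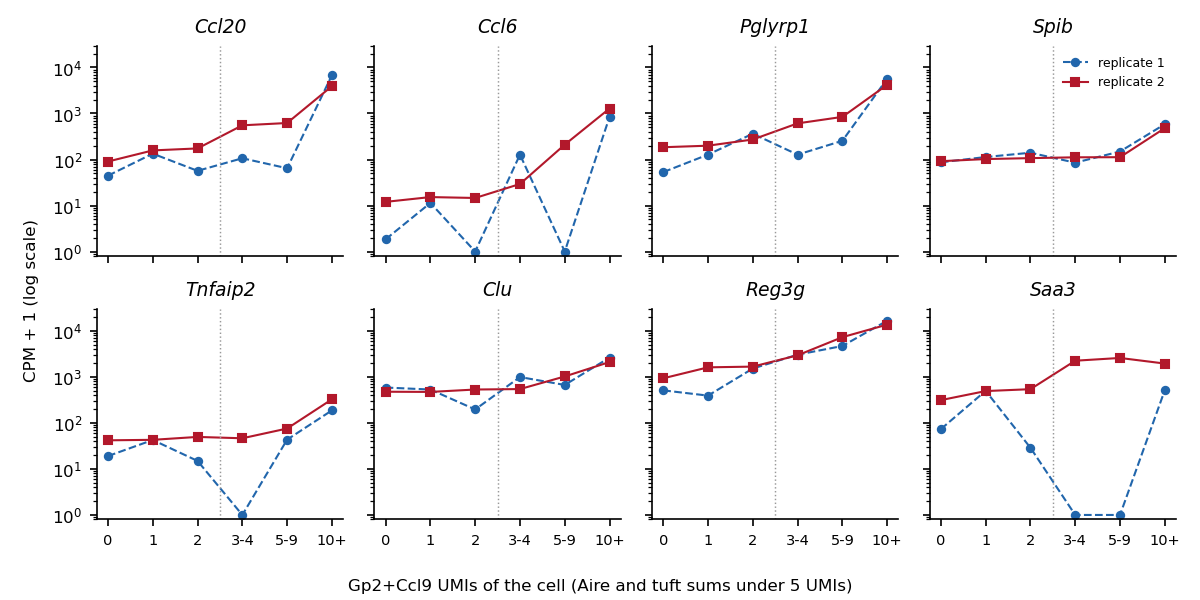
CPM + 1 (log scale) of 8 genes in adult mTEC grouped by the Gp2 and Ccl9 UMIs of the cell, among cells with fewer than 5 Aire and fewer than 5 tuft gene UMIs; circles are replicate 1, squares replicate 2, and the dotted line marks the limit of the rule. In replicate 2 Spib stays between 90.9 and 111.2 CPM up to 9 UMIs and reaches 479.7 CPM at 10 or more, whereas Reg3g climbs at each step past 2 UMIs.

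Clustering of each library with the rule genes left out put the cells into 14 clusters in replicate 2 and 8 in replicate 1. In replicate 2, 1 cluster of 92 cells held 83 microfold-like cells, 90.2% of the cluster and 25.4% of the microfold-like cells, among them 75 of the 152 with 10 or more UMIs. Its leading genes besides the rule genes were Ccl6, Ccl20, Prg2, Fabp1, Serpinb6a, Hamp, Pglyrp1 and Cyp2a5. The other 244 microfold-like cells lay in 12 further clusters, most in 1 led by Klk1b26, Resp18, Gsta2 and Ccl22 (59 cells), 1 led by the keratinocyte genes Spink5, Calm4 and Dapl1 (52), 1 led by the gut genes Guca2b, Apoc3 and Prap1 (41) and 1 led by Chil4, Dcpp3, Ppy and Pyy (38). In replicate 1 the cluster with most of them, 20 of 29, had 197 cells and was led by Spink1, Hamp, Gsta4, Reg3g and Ccl20, so it was not one of M cell genes alone. Among the 20 nearest cells of a microfold-like cell, 22.4% and 38.2% on average were microfold-like, against 0.761% and 3.15% around the other mTEC.

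The cells inside and outside that cluster of replicate 2 differed in the genes they held, given as values with no test, since the same genes shaped the clusters. Inside it, 83 cells with 19.8% of the UMIs of all microfold-like cells held 85.5% of the Ccl6 UMIs, 78.6% of those of Ccl20, 75.3% of Sox8, 73.6% of Tnfaip2 and 65.2% of Spib. The microfold-like cells outside it stood at 118.1 CPM of Spib, 57.6 of Tnfaip2 and 7.7 of Sox8, against 111.1, 36.1 and 5.3 in the other mTEC outside it and 895.8, 649 and 95.7 inside it. Of these genes only Spib was at about the level of the mTEC around them, and Onecut2 stood at 5.90 CPM outside (16 UMIs) against 2.465 in the other mTEC and 46.4 inside. Ccl20 (546 against 102.5 CPM), Ccl6 (112.5 against 12.1) and Pglyrp1 (1124 against 202.5) were still higher in them. Spink1, a trypsin inhibitor, stood at 2879 CPM outside and 1829 inside, Saa3 at 2586 and 628.1, and Guca2b, a gut peptide, at 276 and 314. In replicate 1 the order was the other way: its cluster with most microfold-like cells stood at 2546 CPM of Spink1 and 471.4 of Saa3 in them. The 9 microfold-like cells outside that cluster stood at 0 for both genes. In replicate 2, Spib, Sox8, Onecut2, Tnfaip2, Ccl20, Ccl6 and Pglyrp1 were thus higher in the microfold-like cells inside its cluster than in those outside it. That cluster holds 49.3% of the microfold-like cells of replicate 2 with 10 or more UMIs. Atoh8 stood at 5.98 CPM inside (4 UMIs), 5.17 in the microfold-like cells outside and 11.01 in the other mTEC. Umod stood at 5.98 CPM inside and 11.4 outside, and Esrrg had 2 UMIs inside.

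**Figure D4:**
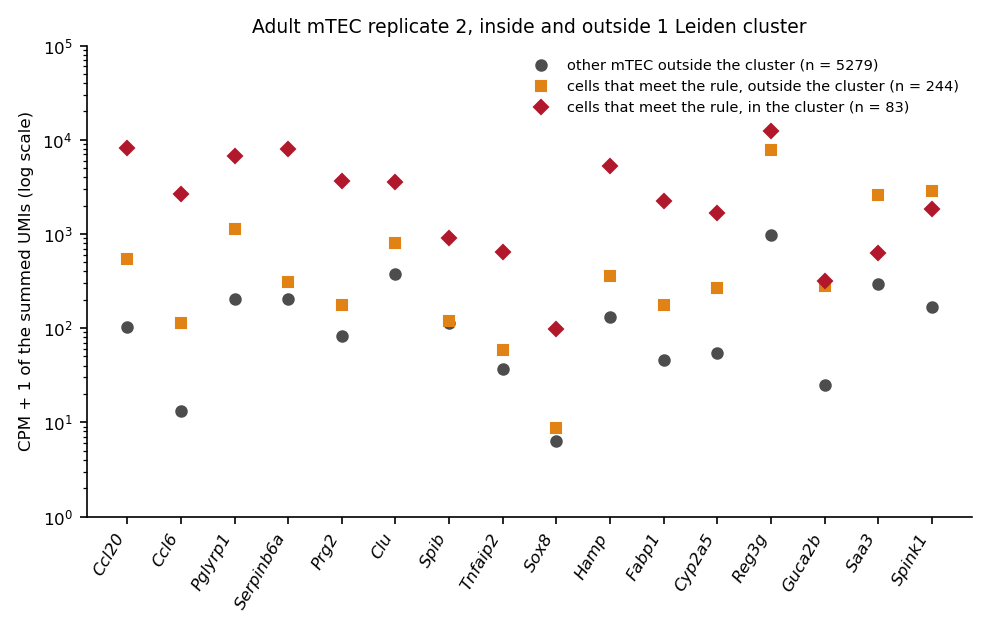
CPM + 1 (log scale) of 16 genes in adult mTEC replicate 2: other mTEC outside the cluster (grey circles, 5279 cells), microfold-like cells outside it (orange squares, 244) and inside it (red diamonds, 83). Spib of the cells outside lies at the grey point (118.1 against 111.1 CPM), with Tnfaip2 and Sox8 of these cells closer to grey than to red, while Reg3g, Guca2b, Saa3 and Spink1 are high outside as well.

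Of the 17 genes of mucosal defence, 11 were higher and 1 lower, against 4.17% and 2.37% of all genes tested. Pglyrp1, which is also on the M cell list, is among the 11. The median log2 difference was 2.08. Reg3g stood at 10700 and 8751 CPM against 553.3 and 986.4 in the other mTEC, a difference of 3.69 (SE 0.16, adjusted p = 1.37e-112), although 1 cell held 61.6% of its UMIs in replicate 1 and the level without that cell was 4347 CPM. The gut trefoil peptides Tff1 (592.8 and 546 CPM against 67.7 and 121.5), Tff2 and Tff3, the siderophore-binding Lcn2 (229.1 and 125.9 against 16.8 and 48) and the antibody transporter Pigr (20.2 and 100.7 against 5.14 and 19.4) rose too. For Tff2, 1 cell held 92.1% of the UMIs in replicate 1, and the level without it was 10.4 CPM against 27.75 in the other mTEC, and Saa3 without its top cell stood at 119.1 CPM there against 123.6. Muc13, a membrane mucin, rose by 4.03 (SE 0.32), from 2.33 and 8.19 to 84.2 and 83.7 CPM. The 1 that fell was Ang4, a Paneth cell ribonuclease, at 3.37 and 59.4 CPM against 90.3 and 87.3.

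Genes of enterocytes or hepatocytes rose in 8 of 9 cases, against 4.17% of all genes, with a median of 2.22. Fabp1, a fatty acid carrier, stood at 687.2 and 587.6 CPM against 25.6 and 46.0 (4.17, SE 0.21, adjusted p = 2.89e-87), and at 427.7 in replicate 1 without its top cell. Apoa4, a lipoprotein of the gut, stood at 421.1 and 514.9 CPM against 65.5 and 121.6 and rose by 2.35 (SE 0.19), and Vil1, the villin of the brush border, by 1.81 (SE 0.37). For Fabp2 and Apoa1 the sums rested on few cells: 1 cell held 82.2% of the Fabp2 UMIs in replicate 2, and without it the level was 37.4 CPM, against 26.7 in the other mTEC. Of the Apoa1 UMIs in replicate 1, 82.1% came from 1 cell, and the level without it was 82.9 CPM against 67.9. Goblet and secretory genes rose in 6 of 9 cases, against the same 4.17%, and 2 of these went the other way in replicate 1: Scgb1a1 stood at 16.8 and 374.1 CPM against 28.4 and 101.4, and Bpifa1 at 33.7 and 233.7 against 40.7 and 67.2.

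The largest rises by the naming rule also took in genes from no list. Hamp, the iron hormone hepcidin, stood at 1657 and 1319 CPM against 41.3 and 130.4 in the other mTEC, a difference of 4.29 (SE 0.19, adjusted p = 2.23e-106). Cyp2a5, a liver cytochrome, stood at 616.4 and 545.1 CPM against 18.7 and 53.9 (4.13, SE 0.21, adjusted p = 1.15e-82), and in replicate 1 57.9% of its UMIs came from 1 cell, without which the level was 274.3. Spink1 stood at 1455 and 2680 CPM against 54.0 and 167, a difference of 4.35 (SE 0.18, adjusted p = 2.62e-120). It was seen in 4 of 29 cells of replicate 1 and 63.0% of the cells of replicate 2. In replicate 2, 47.8% of the other mTEC outside the cluster described above also held a Spink1 UMI. Without its top cell (65.7% of the UMIs) the level in replicate 1 was 513.6 CPM. Mmp7, the matrilysin of Paneth cells, rose by 4.02 (SE 0.27, adjusted p = 9.92e-48), from 4.59 and 14.5 CPM to 171.8 and 130.6, or to 82.1 in replicate 1 without the cell that held 52.9% of its UMIs. Bcl2a1a, which protects from cell death, stood at 340.2 and 326 CPM against 15.1 and 39.4 (3.69, SE 0.22, adjusted p = 1.18e-59) in 65.5% and 60.2% of the microfold-like cells, and Bcl2a1b rose by 3.12 (SE 0.18), but these copies are nearly identical and reads may be split between them. Krt33a and Cst9, also among the 12 largest rises (4.49 and 3.73), rested on 1 cell each in replicate 1: all 177 Krt33a UMIs and all 68 Cst9 UMIs lay in 1 cell. In replicate 2, 78.6% of the Krt33a UMIs lay in 1 cell, and without it the level was 0.891 CPM against 3.52 in the other mTEC, so the rise of Krt33a is not seen in either library without its top cell. By contrast, 22 cells held Cst9, at 40.7 CPM without the top cell against 13.7 in the other mTEC. Serpinb6a, a protease inhibitor, was named for leading the cluster above and stood at 2149 and 1836 CPM against 173.7 and 206.1 (3.37, SE 0.17), with UMIs in 89.7% and 88.1% of the microfold-like cells and 73.35% and 80.03% of the other mTEC.

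Markers of Ccl21a-expressing mTEC (mTEC I) were among the genes that fell, 5 of 8 against 2.37% of all genes tested, with a median of -0.91. Ccl21a, the chemokine that guides thymocytes into the medulla, stood at 710.7 and 1171 CPM against 6541 and 2984, a difference of -2.26 (SE 0.16, adjusted p = 8.80e-41). Krt14 (390.7 and 396.4 CPM against 1099 and 630.5) and Krt5 (289.7 and 192.7 against 610.7 and 349.6), keratins of basal epithelium, fell by 1.07 and 0.98 on the log2 scale. The largest falls named besides Ccl21a were Fst, Ccl11, Tagln, Mgp, Ch25h, Acta2 and Gas1, from -2.78 (SE 0.39) for the activin inhibitor Fst to -1.89 for Gas1. The chemokine Ccl11 stood at 16.8 and 15.1 CPM against 376.1 and 47.5, and the smooth muscle genes Tagln and Acta2 at 16.8 and 19.6 against 209.5 and 76.3, and at 37.0 and 57.6 against 275.4 and 151.2. Against the Aire-high cells, Fst, Ccl11, Tagln, Mgp, Ch25h, Acta2 and Gas1 had adjusted p from 0.238 to 0.968, and Ccl21a was higher in microfold-like cells (0.59, adjusted p = 0.0169). Of the 8 mTEC I markers, Ccl21a and Krt5 rose against Aire-high cells, with a list median of 0.67, so the direction depends on the comparison cells.

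Ribosomal protein genes of the large subunit (Rpl) were also lower as a group: 34 of the 46 tested fell, against 2.37% of all genes. Rps genes were not in this list. The Rpl genes had a median of -0.54, and their summed level was 59660 and 83380 CPM against 85590 and 116700. The part of this lower share in the folds above was not tested. Scaling by DESeq2 size factors in place of TMM left 664 genes higher and 442 lower. Immediate early genes fell in 3 of 12 cases (Fos, Jun and Atf3), against 2.37% of all genes and with a list median of -0.35, with Fos at 737.7 and 674.9 CPM against 1879 and 892.3. Claudins of tight junctions rose: Cldn3 stood at 336.8 and 319.2 CPM against 89.3 and 126.9 (1.59, SE 0.20), Cldn4 at 367.2 and 241.1 against 112.5 and 101.8 (1.44, SE 0.20) and Cldn7 at 552.4 and 618.5 against 160.5 and 251.8 (1.51, SE 0.18), so 4 of 10 junction genes rose with F11r, against 4.17% of all genes tested, with a list median of 0.78. Among lysosomal genes, the cathepsins Ctsd, Ctsh and Ctsz and the membrane protein Lamp1 rose, and the cathepsin Ctsl fell, from 893.7 and 517.2 CPM to 316.6 and 261.6.

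Antigen presentation genes lay close to the other mTEC. Cd74, the invariant chain of MHC class II, stood at 21610 and 15990 CPM against 20980 and 17360, and H2-Aa at 6602 and 6695 against 7032 and 6983, differences of -0.06 (SE 0.13) and -0.10 (SE 0.14) with adjusted p of 0.956 and 0.909. Psmb8, an immunoproteasome subunit, was the 1 of 10 MHC class I genes that rose (0.77, SE 0.17, adjusted p = 3.45e-04), against 4.17% of all genes tested, with a list median of 0.21. Among mTEC II markers, which are otherwise high in Aire-expressing cells, Cd52 (0.70, SE 0.16) and Ubd (0.58, SE 0.14) rose, Utf1 fell by 0.85 on the log2 scale, and Fezf2 stood at 414.3 and 308.2 CPM against 525.4 and 474.3 (adjusted p = 0.0630). Since the rule kept cells with 5 or more Aire UMIs out of the microfold-like cells and not out of the others, genes that go with Aire are partly set by the rule. With Aire-high and tuft-marker cells left out of the others too, 1178 genes were called, of which 758 were among those called before, and Scg5 was the 1 of the 17 M cell genes that was no longer called (0.49).

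Some of these genes are also used by blood cells, among them Ccl6, Ccl9, Wfdc17, Aif1 and Bcl2a1a, so myeloid markers were read beside them. The 15 markers summed to 528.8 and 913.3 CPM in microfold-like cells and to 491.2 and 602.1 in the other mTEC. At 0 were 7 of the 15 in replicate 1 and 2 of the 15 in replicate 2, and the part of blood cells in the results was not tested. Lyz2 made up most of the sum, at 373.9 and 705.8 CPM against 370.2 and 429.2, and Fcer1g had the smallest adjusted p of the 14 tested (0.0702, difference 0.67). Ptprc, the gene of CD45, had 0 and 13 UMIs, or 0 and 3.86 CPM against 2.14 and 1.88 in the other mTEC, and Csf1r 2 and 19 UMIs, or 6.74 and 5.64 CPM against 4.04 and 4.39. Inside the cluster of replicate 2, the 83 microfold-like cells held 0 Ptprc and 0 Csf1r UMIs. They stood at 4.5 CPM of Tyrobp (3 UMIs), against 10.1 in the other mTEC outside it. Those other mTEC stood at 1.87 CPM of Ptprc and 4.38 of Csf1r. In the 83 cells 3 UMIs made 4.5 CPM, so counts of 0 cannot set them apart from the other mTEC. In the 20 microfold-like cells in the cluster of replicate 1, Ptprc and Csf1r were likewise at 0, with the same limit. Tyrobp stood at 23.6 CPM there (4 UMIs in 2 cells), against 6.71 in the other mTEC outside that cluster. Wfdc17, at 1516 and 1051 CPM against 85.2 and 163, rose by 3.39 (SE 0.18), and without its top cell stood at 977.4 CPM in replicate 1. The epithelial markers Epcam (1189 and 980.4 CPM against 995.3 and 658.9) and Krt8 (1600 and 1858 against 1663 and 1771) were present in both groups. Thymocyte markers summed to 6.74 and 21.7 CPM against 41.9 and 32.9.

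Finally, microfold-like cells were compared with tuft-marker cells and with Aire-high cells, the other classes of the same libraries that a count of marker UMIs can pick. Tuft cells are chemosensory cells of mucosa that the thymic medulla also contains. There were 18 and 131 tuft-marker cells and 508 and 1820 Aire-high cells, and the comparisons share the microfold-like sums. Of 12443 genes tested, 617 (4.96%) were higher and 495 (3.98%) lower than in tuft-marker cells, and 695 (5.59%) were higher and 538 (4.32%) lower than in Aire-high cells. Of the M cell list, 16 of 22 were higher than in tuft-marker cells, with Umod at 0 UMIs in the latter, and 13 of 22 than in Aire-high cells. Spib stood at 327.2 and 187.2 CPM in tuft-marker cells and its difference to microfold-like cells, 0.50, missed the threshold (adjusted p = 0.136), whereas Aire-high cells stood at 158.9 and 122.2 CPM (1.06, adjusted p = 0.00239). Pglyrp1 stood at 811.1 and 149.5 CPM in tuft-marker and 131.9 and 175.8 in Aire-high cells, and Ccl20 at 6.82 and 48.0 and at 102.6 and 77.8. RANK, Relb and Cd40 were higher than in tuft-marker cells (1.36, 1.17 and 1.27), as were 7 of 10 MHC class II genes, among them Cd74 (1.26, adjusted p = 1.32e-05). Against Aire-high cells 3 of these 10 were lower, Cd74 by -0.45 (adjusted p = 0.0187). Ctsh was higher than in tuft-marker cells (2.83, adjusted p = 8.20e-05), while its difference to Aire-high cells, which stood at 708.1 and 550.9 CPM, missed the threshold (0.22, SE 0.26, adjusted p = 0.704).

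**Figure D5:**
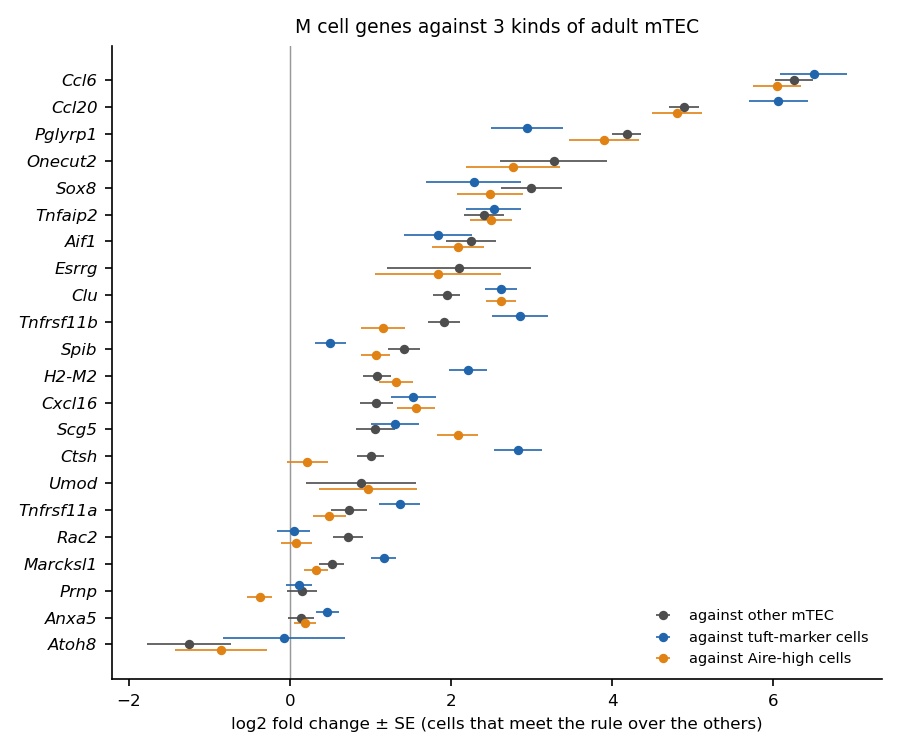
Log2 fold change with SE of the M cell genes in microfold-like cells over the other mTEC (grey), tuft-marker cells (blue) and Aire-high cells (orange), from edgeR on summed UMIs. Points are left out where the other group held 3 UMIs or fewer. Ccl6 and Ccl20 lie above 4 in each comparison, Spib is at 0.50 against tuft-marker cells, and Ctsh is at 0.22 against Aire-high cells.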

How the data were processed

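Counts came from adult mTEC libraries of Chromium v2 single-cell RNA sequencing. The authors deposited UMI counts per gene and cell, made with Cell Ranger 2.0.1 (STAR 2.5.1b, mm10) per their processing notes, while a matrix header of the second data set names Cell Ranger 3.0.1. Replicate numbers only name the libraries. The gene lists held 27998 and 31053 genes, and tests used the 27514 in both (99.67% and 99.7% of UMIs).

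Cells with at most 5% mitochondrial UMIs and at most 5000 genes were kept, 1586 of 1818 and 5615 of 7023. The deposited cells kept held 16693205 and 67536650 UMIs, with a median of 9500.5 and 11386 per cell. Microfold-like cells held 297698 and 3379139 UMIs. Members and gene lists were chosen with earlier results of these data known. Aire-high cells had 5 or more Aire UMIs, and tuft-marker cells 5 or more of the 6 tuft gene UMIs.

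UMIs were summed per library and class and tested with edgeR 4.0.16 (R 4.3.3; TMM scaling, filterByExpr, quasi-likelihood test, library as block, Benjamini-Hochberg adjustment over all genes tested). The 4 sums leave 1 residual degree of freedom, so the test leans on the spread shared across genes. Levels in the tests are CPM of the 27514 genes, and levels by UMI step, cluster and cell are CPM of all UMIs. In simulated counts 196 of 200 genes changed by 2 on the log2 scale were recovered against the other mTEC, with 1.51% false calls, and 76 of 200 changed by 1. Against tuft-marker and Aire-high cells 187 and 196 of 200 were recovered, with 9.22% and 9.26% false calls.

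Named genes were the rule genes, the M cell and RANK lists, the 12 largest rises and 8 largest falls with an average log2 CPM above 5 and the same sign in both libraries (other cell types' markers and ribosomal protein, haemoglobin and antigen receptor genes left out), and up to 4 members of other lists with the highest level. Others were named after their values were seen. Clusters were built per library with scanpy 1.11.5 and leidenalg 0.10.2 (2000 variable genes without the rule genes, 20 components, 20 neighbours, resolution 0.8). Scrublet marked doublets, and 0 cells were removed. Alternatives were DESeq2 1.42.0, its size factors, no low-count filter, no block, all deposited cells, other UMI limits and other comparison cells. No protein sequences were used here. A result that touches a withheld item is not reported here.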

Additional observations from a re-analysis of the deposited data

Results flagged for a closer look

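Cells that met the rule were also present in the adult cTEC libraries, which the comparisons do not use: 6 of 507 cells in replicate 1 (1.18%, exact 95% interval 0.436 to 2.56) and 7 of 535 in replicate 2 (1.31%, 0.528 to 2.68). These libraries were gated for Ly51 and against UEA-1. The 6 and 7 cells stood at 0 and 25.8 CPM of Psmb11, the thymoproteasome subunit that defines cTEC, against 684.7 and 1405 in the other cells of their libraries. Prss16, a cTEC protease, stood at 24.4 and 0 CPM against 1670 and 3077. Genes of the M cell list differed in both directions. Pglyrp1 stood at 6326 and 2452 CPM against 109.6 and 33.9, and Tnfaip2, with UMIs in 6 of 6 and 5 of 7 cells, at 1099 and 335.5 against 74.0 and 33.9. Spib stood at 366.4 and 232.3 CPM against 5.41 and 0.748, though in replicate 2 its 9 UMIs came from 1 cell. Prnp was lower, at 24.4 and 51.6 CPM against 138.5 and 155.4, and H2-M2 stood at 73.3 and 232.3 against 149.8 and 93.3. In replicate 1, Ccl6, Aif1, Scg5 and Rac2 had 0 UMIs in the 6 cells. Epcam was detected in all 6 and all 7 cells. The median depth was 4742 and 5774 UMIs, and with so few cells no test was made.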

How the results depend on the processing

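Without the replicate block, the numbers of genes called fell from 1018 to 0 against the other mTEC (1696 at an unadjusted p under 0.05), from 1112 to 321 against tuft-marker cells (140 higher, 181 lower) and from 1233 to 157 against Aire-high cells (128 higher, 29 lower), and the 35 called genes among 54 named all lost their call. The block is the library itself, and pairs cells captured together. DESeq2's Wald test called 342 genes against the other mTEC (296 higher and 46 lower, where edgeR had 649 and 369) and 708 against Aire-high cells (471 higher, 237 lower), and 7 of the 35 named genes lost their call (Tnfrsf11a, Marcksl1, Scg5, Rac2, H2-M2, Traf1 and Krt33a). The cause was not tested. Under the other settings 768 to 1218 genes were called against the other mTEC. Asking for at least 10 UMIs, an alternative chosen after seeing the data, ended the call of Cst9 and Marcksl1 and gave shares of 1.01% and 2.71%. The share in replicate 2 was 4.39% in cells thinned to 4000 UMIs, 4.26% with at least 5 UMIs, 8.69% with at least 2 and 5.04% in all deposited cells. Leaving Aire-high and tuft-marker cells out of the others reversed Anxa5 (-0.003), Rela (-0.0494) and Cd40 (0.730, adjusted p = 0.0372 by edgeR) and brought Prnp (0.66) and Atoh8 (-1.65) past the threshold. At least 10 UMIs reversed Umod (-0.199) and Nfkb2 (-0.0657), at least 5 UMIs Nfkb2 (-0.0006), at least 2 UMIs Nfkb2 (-0.0014) and Nfkbia (-0.0154), no filter Nfkbia (-0.0187) and others of like depth Nfkbia (-0.0063). None of these was called in the comparison as reported. Without replicate 1 or 2, 1 sum is left against 1, so no test can be made, the 35 called genes had the same sign in both libraries, and the uncalled Birc3, Cd40, Rel, Relb, Tnfsf11 and Umod had opposite signs.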

Other observations

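The 26 microfold-like cells of replicate 2 with Gp2 and no Ccl9 UMI were unlike the rest. Gp2 is also an abundant protein of pancreatic acinar cells, so 16 acinar genes, chosen after values were seen, were summed. They stood at 3262 CPM in these cells, at 559.1 in those with Ccl9 alone, at 314.5 in those with both and at 185.0 in the other mTEC. Prss2 (1233 CPM), Clps (1076), Cela2a (446.8) and Ctrb1 (361.2), digestive enzymes or their cofactor, made up most of the sum, and the acinar factors Rbpjl and Bhlha15 had 0 UMIs. Spib stood at 85.65 CPM in them against 338.8 in cells with both rule genes, Ccl20 at 63.3 against 2791 and Tnfaip2 at 11.2 against 253.4. In replicate 1 the 1 such cell, of 14673 UMIs, held 0 UMIs of the 16 genes, and the sum was 644.6 CPM in cells with Ccl9 alone, 366.4 in those with both and 129.8 in the other mTEC. No test was made.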
